A study of Mus musculus with 24 samples.

Results

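The 99 genes described here lie on mouse chromosome 8 between 68 and 76 Mb (mm10), a stretch of 8 Mb picked out by RNA levels that differed between heart muscle cells with and without intact Mrtf genes. They were taken from the 23337 genes of the count table by position and by level: 140 genes lay in the window, 106 of them had at least 10 counts in at least 6 of 24 libraries, and 7 of these were set aside by name. The names set aside were Gdf15, Jund, Klf2, Hmox1 and the genes of respiratory complex I and of ribosomal proteins. The window itself had been picked because earlier results of these libraries showed several genes there that differed with Mrtf genotype, with Zfp868, Haus8, Ocel1, Rfxank and Rasd2 as its markers. All values that compare mutant with intact Mrtf genes are therefore descriptions, given without a test. Of the 99 genes 98 passed the filter on low counts. The exception, F2rl3 (a thrombin receptor of platelets and endothelium), reached 10 counts in 7 libraries and at most 1.61 CPM (reads scaled to the effective library size).

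RNA came from sorted heart muscle cells of 4-week-old mice in 4 groups of 6 libraries each, and all animals carried the Cas9 nuclease at the Rosa locus. Ctrl mice had the genotype Rosa-Cas9/Cas9 and received AAV-Cre, a virus that delivers Cre recombinase, on postnatal day 1. MKO mice shared that genotype but received AAV-Myocd-sgRNA, which carries a guide RNA against Myocd. DKO mice (Mrfta-/-; Mrtfb-F/F; Rosa-Cas9/Cas9, in the spelling of the labels) received the Cre virus, and TKO mice of that same genotype received the guide virus. The labels do not say which promoter drives Cre, whether the guide virus also carries Cre, or whether the libraries of a group are separate animals. Strain background and litters of the 2 genotypes are not stated, and anything else that differed between the 2 sets of mice cannot be told apart from the Mrtf genotype.

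Myocd and the Mrtf factors are coactivators of serum response factor (Srf), which binds the CArG box in promoters of actin and muscle genes. Mrtf factors are held in the cytoplasm by monomeric actin and enter the nucleus when actin polymerizes. The genes of the chromosome 8 block have no single function: they include a cluster of zinc finger genes, genes of RNA processing and membrane traffic, lipoprotein lipase and a potassium channel of the sarcoplasmic reticulum. Neither Mrtf gene lies on chromosome 8: Mrtfa (listed as Mkl1) is on chromosome 15 and Mrtfb (listed as Mkl2) on chromosome 16.

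Total counts lay between 5.83 and 17.2 M reads per library, in overlapping ranges in the 4 groups. The library DKO 1, which was also the shallowest, stood apart: its median correlation with the other libraries of its group was 0.914, against 0.965 to 0.985 in the other 23, so results are given with all 24 libraries and, where they move, with the 22 that remain without Ctrl 3 and DKO 1. Ctrl 3 did not stand apart by this measure (0.971) and was left out with DKO 1 because an earlier analysis of these files had done so. Mkl1 lay between 4.81 and 11.9 CPM over Ctrl and MKO and between 1.33 and 2.77 over DKO and TKO, lower in the groups labelled with its loss. Mkl2 lay between 44.1 and 59.2 CPM over Ctrl and MKO and between 26.6 and 42.5 over DKO and TKO. Myocd, the gene the guide targets, was at 153 to 234 CPM in Ctrl and 120 to 187 in MKO, and at 175 to 242 in DKO and 175 to 323 in TKO, so both pairs overlapped. Counts of a gene do not show whether its DNA was edited, and these values check nothing about the guide. By sex-linked transcripts 8 of the 12 Ctrl and MKO libraries and 4 of the 12 DKO and TKO libraries were male. The imbalance was largest for DKO, where 1 library of 6 was male. TKO had 3 males, and the intact groups had 4 each. That male DKO library was DKO 1, so every DKO library among the 22 was female. Sex is therefore partly mixed with group in DKO minus Ctrl and in TKO against DKO, and in all values from the 22 libraries that involve DKO. Heart muscle markers made up most of the marker signal: the summed level of 10 of 10 such genes was 92877 to 148438 CPM over all libraries. For 9 endothelial genes the sum lay between 135 and 1421 CPM in Ctrl and 138 and 757 CPM in DKO and TKO, for 9 fibroblast genes between 116 and 1110 CPM in Ctrl and MKO and 82.7 and 701 CPM in DKO and TKO, and for 7 tested smooth muscle and pericyte genes between 476 and 820 CPM in Ctrl, 643 and 815 in MKO, 194 and 631 in DKO and 408 and 673 in TKO, and no marker of the 5 lists was at 0 in every library. In bulk RNA, fewer cells of a type and less RNA per cell cannot be told apart.

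4 genes of the block had all 12 Mrtf mutant libraries on one side of all 12 others: Haus8 above, and Ocel1, Rfxank and Rasd2 below. That is 4.08% of 98 genes, beside 0.309% of the 12281 genes tested, and since the window was chosen on this contrast nothing is read from the excess. Their promoters are shown because they are the places where the separation between genotypes was complete. Each runs from 250 bases before to 50 bases after the start site (RefSeq, GRCm38.p6), 5′ to 3′ on the strand of the gene, with capitals for the letters CATTCC, the motif of TEAD factors. The Rfxank promoter (chr8:70139148-70139447, minus strand), the Haus8 promoter (chr8:71272541-71272840, minus strand), the Ocel1 promoter (chr8:71371048-71371347, plus strand) and the Rasd2 promoter (chr8:75213694-75213993, plus strand) each have a start site at the same base as the 5′ end of the gene in the count table.
Rfxank: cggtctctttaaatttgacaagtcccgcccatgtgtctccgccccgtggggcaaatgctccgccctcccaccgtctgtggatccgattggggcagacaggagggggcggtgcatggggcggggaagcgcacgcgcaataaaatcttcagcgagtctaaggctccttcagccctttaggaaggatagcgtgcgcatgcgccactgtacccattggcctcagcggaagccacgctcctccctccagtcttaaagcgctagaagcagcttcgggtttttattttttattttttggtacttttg
Haus8: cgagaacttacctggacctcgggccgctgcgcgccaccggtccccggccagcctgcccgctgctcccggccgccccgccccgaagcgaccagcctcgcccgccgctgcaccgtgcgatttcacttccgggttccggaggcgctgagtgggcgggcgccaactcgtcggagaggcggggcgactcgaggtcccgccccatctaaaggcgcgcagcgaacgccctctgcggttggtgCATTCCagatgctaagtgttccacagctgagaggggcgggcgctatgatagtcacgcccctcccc
Ocel1: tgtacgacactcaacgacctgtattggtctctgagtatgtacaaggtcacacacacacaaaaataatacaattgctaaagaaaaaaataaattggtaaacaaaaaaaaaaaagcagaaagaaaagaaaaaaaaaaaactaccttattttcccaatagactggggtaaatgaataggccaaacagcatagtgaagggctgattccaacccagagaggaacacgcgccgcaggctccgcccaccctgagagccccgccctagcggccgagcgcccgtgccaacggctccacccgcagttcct
Rasd2: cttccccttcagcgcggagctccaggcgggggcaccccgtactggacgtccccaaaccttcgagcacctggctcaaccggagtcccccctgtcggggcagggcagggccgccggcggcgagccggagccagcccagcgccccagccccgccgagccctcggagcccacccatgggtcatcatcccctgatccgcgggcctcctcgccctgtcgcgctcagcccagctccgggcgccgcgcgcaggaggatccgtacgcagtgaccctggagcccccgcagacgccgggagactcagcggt

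None of the 4 promoters holds a CArG box, and the letters CATTCC occur in that of Haus8 only, 15 bases before the start. Their base composition differs widely, from 46% G and C in Ocel1, whose upstream part is rich in A, to 74.7% in Rasd2. The Haus8 window also covers the start of its neighbour Myo9b, which is read in the opposite direction from a point 123 bases away.

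Haus8 encodes a subunit of augmin, the complex that nucleates new microtubules along those of the spindle. Its levels (lowest, median and highest of 6 libraries) were 20.7, 24.2 and 37.2 CPM in Ctrl and 19.2, 32.1 and 40.7 CPM in MKO. They were 52.0, 56.6 and 65.9 CPM in DKO and 45.2, 61.2 and 84.7 CPM in TKO. Every DKO and TKO library stood above every Ctrl and MKO library, and the narrowest gap was between TKO 4 at 45.2 CPM and MKO 1 at 40.7 CPM. The mean of the 2 mutant groups exceeded that of the other 2 by 1.08 ± 0.13 on the log2 scale (SE from the fit over 24 libraries), with 1.12 ± 0.19 for DKO minus Ctrl and 1.04 ± 0.19 for TKO minus MKO.

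Zfp868, a zinc finger gene of a cluster at the lower end of the block, was the zinc finger gene with the largest difference. It measured 14.4, 26.3 and 30.3 CPM in Ctrl and 10.7, 18.6 and 28.8 CPM in MKO, against 7.18, 8.16 and 9.48 CPM in DKO and 7.60, 8.21 and 11.7 CPM in TKO. DKO was apart from Ctrl, but TKO 1 at 11.7 CPM lay above MKO 5 at 10.7 CPM, so that the 12 and 12 libraries overlapped by that pair. The difference was -1.32 ± 0.14 on the log2 scale. The counting rule for reads that match more than 1 place is not stated in the labels. The zinc finger genes of this cluster may share reads, and their values are uncertain for that reason. How alike their sequences are was not measured.

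Ocel1, which encodes a protein with a domain shared by occludin and the elongation factor Ell, ranged over 9.61, 14.9 and 18.6 CPM in Ctrl and 10.9, 14.7 and 18.2 CPM in MKO. The DKO values were 4.37, 5.61 and 7.39 CPM and the TKO values 6.59, 7.08 and 8.64 CPM. The highest mutant library, TKO 2, lay just under the lowest intact library, Ctrl 4, and the log2 difference was -1.17 ± 0.11. The 4 groups of Rfxank, a subunit of the RFX complex that activates major histocompatibility class II genes, formed narrower bands: 37.1, 42.2 and 45.8 CPM in Ctrl, 31.8, 35.0 and 39.7 in MKO, 24.2, 26.5 and 30.2 in DKO and 21.5, 24 and 26.9 in TKO. Its difference was smaller, -0.60 ± 0.06, yet no mutant library reached an intact one.

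Rasd2 (Rhes), a small GTPase of the Ras family best known from the striatum, was a low transcript with 5.85, 7.42 and 9.89 CPM in Ctrl and 4.76, 6.02 and 10.3 CPM in MKO. It was at 1.32, 2.55 and 3.80 CPM in DKO and 1.22, 1.71 and 2.09 CPM in TKO. All mutant libraries lay below 4.76 CPM, and the log2 difference of -1.79 ± 0.16 was the most negative among genes of at least 2 CPM in their higher groups. Abhd8, a hydrolase-fold protein, was apart with the 22 libraries (beside 0.502% of all genes) but not with all 24: its Ctrl values were 37.2, 50.7 and 55.5 CPM and its MKO values 37.3, 43.6 and 48.3 CPM. TKO lay at 20.5, 21.4 and 22.9 CPM, and DKO at 25.0, 28.9 and 50.9 CPM, the last being DKO 1. Its difference was -0.82 ± 0.09 with all libraries and -0.90 with the 22.

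**Figure D1:**
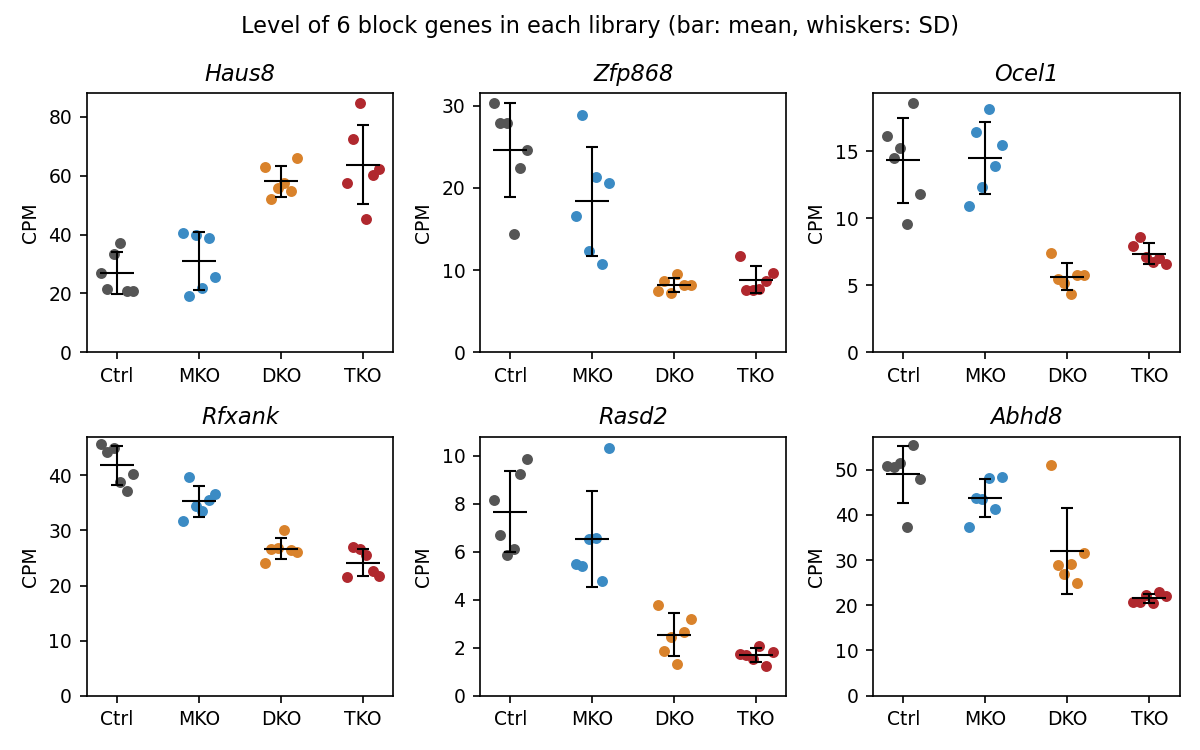
Level in CPM (y axes, from 0) of 6 genes of the block in each of the 24 libraries (points), with the group mean (bar) and SD (whiskers), n = 6. Haus8 is higher and the other 5 lower in DKO and TKO, and the DKO point of Abhd8 at 50.9 CPM is DKO 1.

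Within the intact groups the libraries were not uniform. The Zfp868 level was 14.4 CPM in Ctrl 4, 16.5 in MKO 1, 12.3 in MKO 3 and 10.7 in MKO 5, and 20.6 to 30.3 CPM in the other 8. Haus8 in these same 4 libraries was at 37.2, 40.7, 39.9 and 38.8 CPM, the 4 highest values of the 12, and at 19.2 to 33.5 CPM in the other 8. These libraries were singled out after their values were seen, and no comparison of them was made. In the 22 libraries the SD within groups, on the log2 scale, was 0.48 for Zfp868 in Ctrl and MKO against 0.21 in DKO and TKO, 0.43 against 0.24 for Haus8 and 0.32 against 0.15 for Ocel1. The markers Rfxank and Rasd2 did not share this, their spread being about the same on both sides. Taken over the whole block, the picture was mixed. The SD was wider in Ctrl and MKO for 61 of 98 block genes (62.2%), beside 6139 of the 12281 genes tested. With all 24 libraries the same shares were 34.7% for the block and 26.4% for all genes.

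Over the whole block, 31 of the 98 genes passed an adjusted p of 0.05 in the comparison of mean DKO and TKO with mean Ctrl and MKO, 13 of them higher and 18 lower in the mutants. Among all 12281 genes tested that share was 10.8% (6.08% higher and 4.75% lower), against 31.6% here, and as the block was chosen on this contrast the excess is a description. The other 67 genes did not pass, so the name of a changed block covers a minority of its genes. The median absolute log2 difference was 0.256 over the block and 0.139 over all genes. With the 22 libraries 41 of 99 passed (41.4%, beside 16.9% of all genes), with medians of 0.233 and 0.131. Of the 31 genes 29 were among these 41, Arrdc2 and Gm10033 no longer passed, and 12 others did. With the level of Xist as a covariate, which takes up the uneven sexes, 30 passed, beside 13.8% of all genes.

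**Figure D2:**
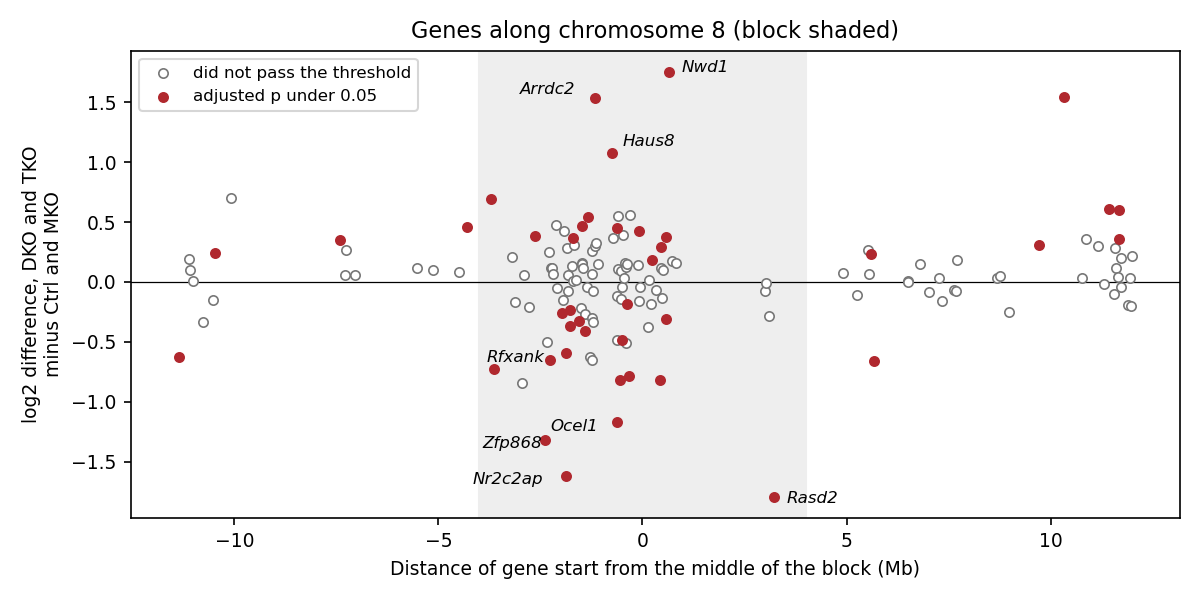
Log2 difference between mean DKO and TKO and mean Ctrl and MKO (y axis) for each tested gene against its distance from the middle of the block in Mb (x axis), filled where the adjusted p was under 0.05. Inside the shaded block filled points lie on both sides of 0, from -1.79 (Rasd2) to 1.75 (Nwd1).

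The genes that passed were spread along the block in both directions. In successive bins of 1 Mb from 68 Mb upward, 2 of 4, 3 of 13, 11 of 36, 8 of 26 and 6 of 15 genes passed. No tested gene started between 73 and 74 Mb, and the last bins held 0 of 1 and 1 of 3, the last being Rasd2. Of 96 pairs of neighbouring block genes 51 differed in opposite directions and 45 in the same direction. In 8 pairs both neighbours passed, and in 6 of those they went opposite ways.

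3 of these pairs show how close opposite values could lie. Use1, a SNARE protein of the endoplasmic reticulum, was higher by 0.45 ± 0.10 with 26.9 to 38.3 CPM over Ctrl and MKO and 31.7 to 62.7 over DKO and TKO. It ends 1565 bases before Ocel1, which had its -1.17. The gene 9130011J15Rik (Smim7, a small membrane protein), higher by 0.37 ± 0.07, is separated by 1054 bases from Tmem38a, lower by 0.31 ± 0.10. Calr3 and 1700030K09Rik start 101 bases apart on opposite strands, with -0.82 ± 0.14 and 0.29 ± 0.08.

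In the other 2 pairs the neighbours overlap and went the same way. Nr2c2ap, a partner of a nuclear receptor, lies wholly inside Rfxank on the opposite strand over 2416 bases. The 6 Ctrl libraries held 1.39 to 2.71 CPM and the MKO libraries 1.14 to 3.35, against 0.253 to 0.999 CPM for DKO and 0.469 to 1.22 for TKO, with a difference of -1.62 ± 0.25. The library kits do not mark strand, and 899 of the 1184 exon bases of Nr2c2ap (75.9%) are also exon bases of Rfxank, so reads there cannot be assigned to either gene. The share of such reads was not measured. Armc6 (-0.37 ± 0.08) and Sugp2 (-0.24 ± 0.06) overlap by 197 bases, all of them in exons of both.

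The genes on both sides of each border show where the window was drawn. The 2 first genes inside the lower edge were Sh2d4a, an SH2 domain adaptor, at 0.70 ± 0.11 and Csgalnact1, which starts chondroitin sulfate chains, at -0.73 ± 0.23. Just outside lay Psd3 at 0.46 ± 0.09 and Nat2 at 0.08 ± 0.22. At the upper edge Mcm5, of the replicative helicase, stood at -0.29 ± 0.21 and Rasd2 at -1.79 ± 0.16 inside, and Nr3c2 (the mineralocorticoid receptor) at 0.08 ± 0.10 and Arhgap10 at -0.11 ± 0.06 outside.

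The 4 windows of the same length set beside the block held lower shares. In the 8 Mb below the block 4 of 16 genes passed (25.0%), in the 8 Mb above 7 of 36 (19.4%), around Mkl1 25 of 104 (24%) and around Mkl2 9 of 50 (18%). The median absolute difference was 0.171, 0.136, 0.176 and 0.171 in these windows, against 0.256 in the block. Of 228 windows of 8 Mb with at least 20 tested genes, tiled over the genome, that of the block ranked first in this median. Its set-aside genes were included there (105 genes). It held 4 genes with complete separation of libraries (3.81%), the highest number, shared with a chromosome 15 window that starts at 76 Mb. That window holds Mkl1, which is itself counted among its 4 genes. As a share, complete separation was higher in smaller windows, such as 6.06% of 33 genes in the chromosome 15 window from 68 Mb. In the share that passed, the block window ranked 2. In the share for DKO minus Ctrl it also ranked 2 (8.57%), behind that chromosome 15 window from 68 Mb (12.1%). The ranks describe the choice of the window and test nothing.

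The 2 comparisons behind the difference share no library: DKO with Ctrl under the Cre virus, and TKO with MKO under the guide virus. Both enter the contrast on which the block was chosen. Their shares and their likeness in the block are therefore descriptions and not a replication. In DKO minus Ctrl 9 block genes passed (9.18%, beside 0.635% of all genes, 0.301% higher and 0.334% lower), and these were Haus8 and Sh2d4a higher and Zfp868, Nr2c2ap, Ocel1, Rasd2, Rfxank, Abhd8 and Mau2 lower. In TKO minus MKO 25 passed (25.5%, beside 13.3% of all genes), 11 higher and 14 lower, beside 6.48% and 6.86% of all genes. Of the 98 genes 71 had the same sign in both (72.4%, beside 61.4% of all genes), and across these genes, which are not independent replicates, Pearson's r was 0.71, beside 0.34 across all genes. At least 0.5 on the log2 scale in the same direction in both were 13 genes (13.3%, beside 3.15%): Haus8, Sh2d4a, Arrdc2 and Nwd1 higher and Zfp868, Zfp963, Rfxank, Nr2c2ap, Ocel1, Abhd8, Jak3, Calr3 and Rasd2 lower. Arrdc2 was at 76.5 CPM in DKO 1, and with the 22 libraries its DKO minus Ctrl value was 0.41, which left 12 genes. Males were fewer in DKO than in Ctrl. With the Xist covariate DKO minus Ctrl again gave 9 block genes, beside 2.65% of all genes.

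**Figure D3:**
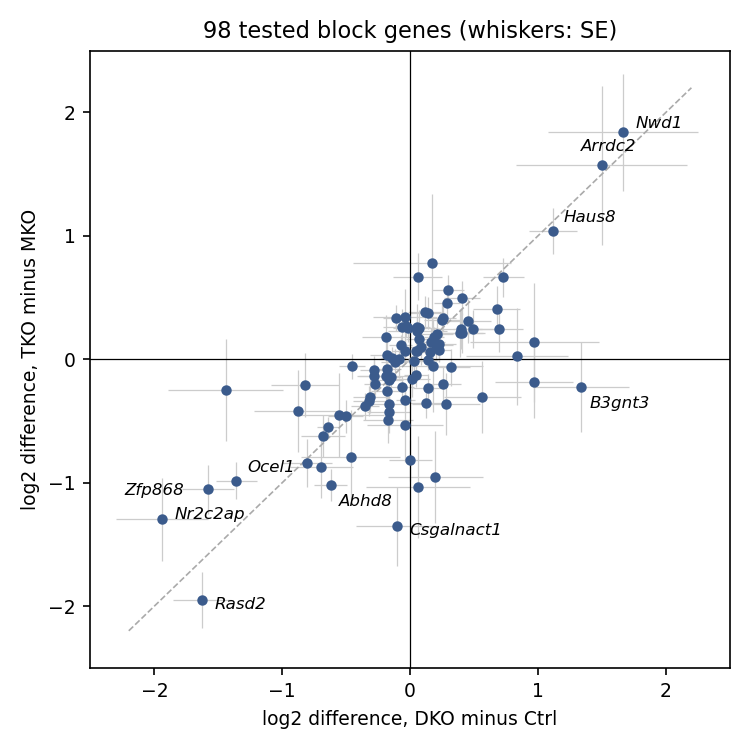
Log2 difference of the 98 tested genes for DKO minus Ctrl (x axis) and TKO minus MKO (y axis), with standard errors as whiskers and the line of equal values dashed. Haus8, Arrdc2 and Nwd1 lie at the upper right and Rasd2, Nr2c2ap, Zfp868, Ocel1 and Abhd8 at the lower left, while Csgalnact1 and B3gnt3 lie near an axis.

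Complete separation of 6 from 6 libraries was seen in 8 block genes for DKO and Ctrl (8.16%, beside 0.993% of all genes) and in 22 for TKO and MKO (22.4%, beside 9.71%). Besides the 4 genes apart in both, the DKO set held Sh2d4a, 2810422J05Rik, Zfp868 and Nr2c2ap. The values under the 2 viruses lay far apart for some genes: Csgalnact1 stood at -0.10 ± 0.32 in DKO minus Ctrl and -1.35 ± 0.32 in TKO minus MKO, and B3gnt3, a glycosyltransferase, at 1.34 ± 0.38 and -0.22 ± 0.36. The test of that change between viruses is given with the interaction.

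The counts by role stand beside 6.08% higher and 4.75% lower among all genes. The 21 tested genes of transcription and zinc fingers held 5 lower and 1 higher. Zfp963 went from 8.34 ± 1.68 CPM in Ctrl (SD, n = 6) and 6.68 ± 1.55 in MKO to 5.26 ± 1.04 in DKO and 4.34 ± 0.765 in TKO. Zfp617, at the other end of the zinc finger genes, was higher by 0.43 ± 0.09, with 7.54 to 12.5 CPM in Ctrl and MKO and 10.2 to 14.2 CPM in DKO and TKO. Among the zinc finger genes next to Zfp868 that did not pass, the values went from -0.50 ± 0.24 in Zfp964 to 0.25 ± 0.09 in Zfp869, on both sides of 0.

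Genes of membrane traffic and the cytoskeleton held 4 higher and 0 lower of 16, with a median of 0.14. With the 22 libraries 6 of the 16 were higher and 1 lower, where 16.9% of all genes passed in either direction. Myo9b (0.48 ± 0.08) and 2310045N01Rik (0.23 ± 0.08) were added as higher and Rab3a, a GTPase of synaptic vesicles (-0.39 ± 0.08), as lower. Cope, a subunit of the coatomer that coats Golgi vesicles, lay at 120 to 170 CPM over Ctrl and MKO and 148 to 354 over DKO and TKO, with a difference of 0.37 ± 0.11. The gene 2810422J05Rik (Kxd1, a subunit of the BORC complex that positions lysosomes) lay at 43.5 to 58.0 CPM in Ctrl and MKO and 57.4 to 177 in DKO and TKO, with 0.47 ± 0.13. The highest value of both was DKO 1, and without it and Ctrl 3 the differences were 0.24 and 0.29. The others were Use1 and Ap1m1, a subunit of a clathrin adaptor, at 0.19 ± 0.06.

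Of 9 RNA processing genes 1 was higher and 2 lower. Lsm4, of the ring that binds the U6 small nuclear RNA and decaying messages, was at 45.5 to 69.6 CPM in Ctrl and MKO and 53.8 to 168 in DKO and TKO, again with DKO 1 at the top. Its difference was 0.54 ± 0.13, or 0.40 with the 22 libraries. Gtpbp3, which modifies mitochondrial transfer RNA, was lower by 0.48 ± 0.10, and the nonsense-mediated decay helicase Upf1 was at 0.31 ± 0.11 without passing, though with the 22 libraries it passed at 0.37 ± 0.08. In the list drawn up for cell division and DNA repair, of 6 genes, Haus8 was higher and Mau2, a loader of cohesin, was lower (-0.26 ± 0.07). Armc6 was lower as well, and its place in that list was not checked.

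Among the metabolic genes, Lpl, lipoprotein lipase, was the most abundant gene of the block per kilobase of exon, at 680 CPM per kb in Ctrl, and measured -0.17 ± 0.08 without passing the threshold, while with the 22 libraries it passed at -0.22 ± 0.07. The fatty acid carrier Slc27a1, at 118 CPM per kb, stood at 0.16 ± 0.07. Of 13 such genes 2 were lower, Csgalnact1 and Glt25d1 (Colgalt1, which adds galactose to collagen, -0.19 ± 0.05), and 0 higher. With the 22 libraries 4 were lower, Lpl and the inositol phosphate synthase Isyna1 (-0.36 ± 0.08) being added. In that fit 16.9% of all genes passed in either direction. Tmem38a, the potassium channel that balances charge as calcium leaves the sarcoplasmic reticulum, came second in level at 319 CPM per kb and was the 1 channel gene of 4 that passed. Its CPM was 547, 673 and 762 in Ctrl, 559, 574 and 664 in MKO, 413, 497 and 874 in DKO and 403, 494 and 554 in TKO. All groups but TKO and MKO overlapped.

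Receptors and signalling genes held 2 higher and 2 lower of 8. Arrdc2, an arrestin-domain protein that links receptors to ubiquitin ligases, was the most variable: it measured 3.77, 4.89 and 19.5 CPM in Ctrl, 3.13, 4.18 and 31.6 in MKO, 3.99, 9.87 and 76.5 in DKO and 13.5, 29.9 and 45.9 in TKO. All groups overlapped, and the difference of 1.53 ± 0.46 became 0.99 ± 0.41 with the 22 libraries and no longer passed the threshold. Jak3, the kinase of cytokine receptors of lymphocytes, was lower by 0.78 ± 0.18, the Ctrl libraries holding 22.3 to 69.7 CPM, MKO 33.4 to 63.5, DKO 8.99 to 31.8 and TKO 19.1 to 29.4. The 9 endothelial markers had a median difference of -0.51 and 8 tested fibroblast markers one of -0.36, with 0 past the threshold in both lists. The 7 tested smooth muscle and pericyte markers had a median of -0.58 with 1 past it, lower, and 7 tested leukocyte markers one of 0.09 with 0, and their part in the result was not tested. The immune and endothelial list held 1 lower gene of 5, Jak3 again, while Ifi30, a thiol reductase of antigen processing, stood at -0.65 ± 0.24 and the interferon-induced tetherin gene Bst2 at 0.39 ± 0.21.

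Of the 16 genes in no list 4 were higher and 4 lower. Calr3, a calreticulin best known from the testis, went from 32.0 ± 4.10 CPM in Ctrl (SD, n = 6) and 24.1 ± 4.98 in MKO to 18.6 ± 8.28 in DKO and 13.5 ± 1.69 in TKO. Nwd1 had the largest positive difference, 1.75 ± 0.38, from very few reads: 0 to 1.22 CPM in Ctrl and MKO and 0.253 to 2.19 in DKO and TKO. Klhl26 was lower by 0.33 ± 0.09, and the numbered gene Gm10033 next to Zfp868 was higher by 0.38 ± 0.13 and did not pass with the 22 libraries (0.37 ± 0.13).

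**Figure D4:**
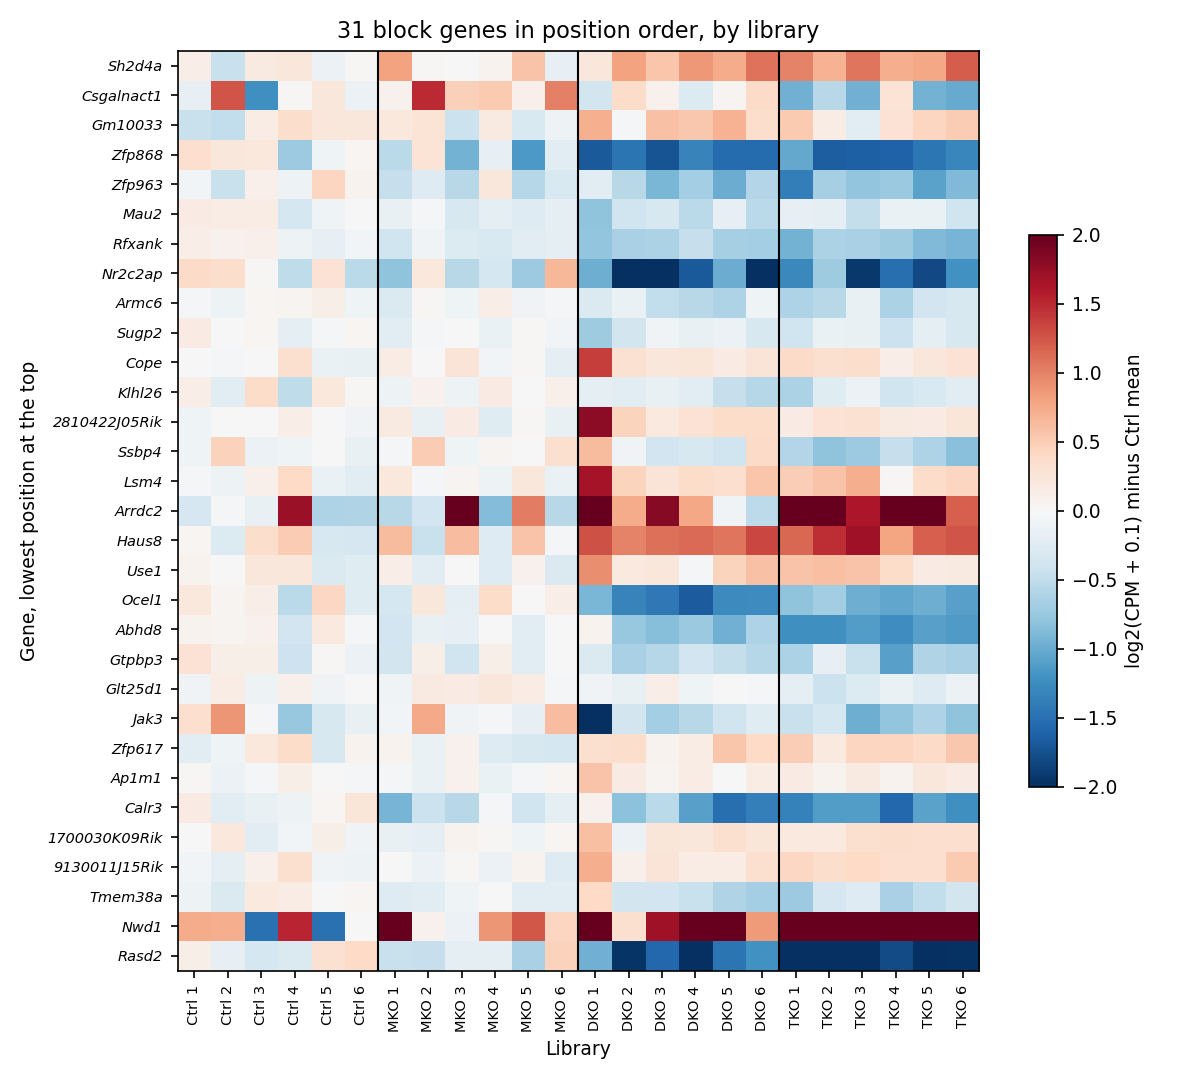
Log2(CPM + 0.1) minus the Ctrl mean (colour, saturated at 2 in either direction) of the 31 genes past the threshold (rows, in position order) in the 24 libraries (columns). Red and blue rows both occur along the block, in places as runs of the same colour. The column of DKO 1 holds the deepest red of Cope, 2810422J05Rik and Lsm4.

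The comparisons of the guide virus within a genotype were not used to choose the block and could be tested. MKO against Ctrl compared the guide virus with the Cre virus in mice with intact Mrtf genes. The guide cannot be told apart there from any difference in Cre between the viruses. In this comparison 0 of 98 genes passed, beside 0% of all genes. In edgeR 9 block genes had an unadjusted p under 0.05, of 762 in all, and DESeq2 called 0 of the block and 1 gene in all. Rfxank stood at -0.25 ± 0.08, Plvap, of the diaphragms of capillary endothelium, at 0.84 ± 0.26 and Bst2 at 0.93 ± 0.31 (adjusted p = 0.698 for each, edgeR's quasi-likelihood test). Bst2 lay between 0.497 and 3.37 CPM in Ctrl and between 2.87 and 5.52 in MKO, and Plvap between 1.24 and 5.39 and between 4.37 and 9.34, so the groups overlapped in both. The lowest endothelial sum was 135 CPM in Ctrl and 556 in MKO, and its part in these values was not tested. The median absolute difference was 0.0994 in the block and 0.121 over all genes.

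In TKO against DKO, the same virus comparison in the Mrtf mutant genotype, 5 block genes passed (5.10%, beside 6.38% of all genes, 4.16% higher and 2.22% lower). Myo9b, an unconventional myosin, and Ell, an elongation factor of RNA polymerase II, rose. Abhd8, Ssbp4, a single-stranded DNA binding protein, and Fam125a (Mvb12a, of the ESCRT-I complex), fell. The share called was close to that over all genes. The sexes were uneven in this comparison, with 1 male library of 6 in DKO and 3 of 6 in TKO.

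The Myo9b values were 16.6, 52.4 and 58.8 CPM in DKO and 66.9, 80.4 and 85.1 CPM in TKO, with no overlap. It rose by 0.71 ± 0.19 (adjusted p = 0.0237, edgeR), and by 0.56 with the 22 libraries, since DKO 1 was the library at 16.6 CPM. Its neighbour Haus8, which starts 123 bases away, was at 0.14 ± 0.18 in this comparison (adjusted p = 0.678, edgeR). Ssbp4 lay at 9.50, 11 and 19.4 CPM in DKO and 7, 7.80 and 9.03 in TKO, likewise without overlap, and fell by 0.69 ± 0.17 (adjusted p = 0.0126, edgeR). Abhd8, with the values given above, did not overlap either and fell by 0.56 ± 0.13 (adjusted p = 0.00937, edgeR). With the 22 libraries the difference was -0.38 for Abhd8 (adjusted p = 0.00775, edgeR) and -0.54 for Ssbp4 (adjusted p = 0.0235, edgeR).

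The 2 further calls had groups that overlapped. Ell spanned 26.3, 28.0 and 28.9 CPM in DKO and 26.7, 33.1 and 44.9 in TKO and rose by 0.35 ± 0.10 (adjusted p = 0.0432, edgeR). Fam125a spanned 18.9, 21.4 and 38.7 CPM in DKO, the highest being DKO 1, and 14.8, 17 and 19.6 in TKO. It fell by 0.46 ± 0.13 (adjusted p = 0.0399, edgeR), a call that ended with the 22 libraries (-0.27, adjusted p = 0.0706). With only DKO and TKO in the fit none of the 5 passed in edgeR (adjusted p from 0.0796 to 0.184), and no other gene of the block did. With the 22 libraries 8 block genes passed, beside 10% of all genes, among them Mpv17l2 (0.40 ± 0.08) and Fkbp8 (0.19 ± 0.05), chosen here after their values were seen.

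**Figure D5:**
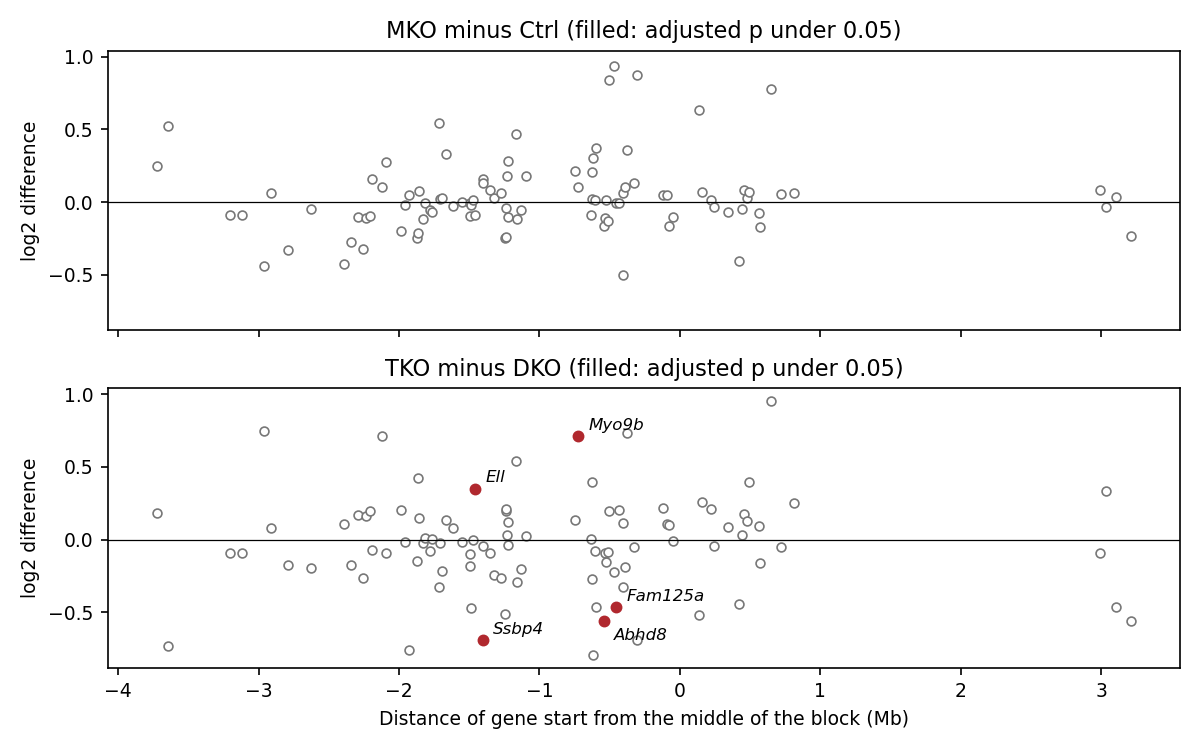
Log2 difference of the block genes for MKO minus Ctrl (upper panel) and TKO minus DKO (lower panel) against distance from the middle of the block in Mb, filled where the adjusted p was under 0.05. The upper panel has no filled point and the lower has 5, Ell and Myo9b above 0 and Ssbp4, Abhd8 and Fam125a below.

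The interaction, TKO minus DKO less MKO minus Ctrl, asks whether the difference between genotypes changed with the virus. For the block 0 of 98 genes passed in edgeR, beside 0.464% of all genes, with 15 at an unadjusted p under 0.05 of 1520 in all. DESeq2 called 0 of the block, beside 1.56% of all genes. The lowest adjusted p was that of Ssbp4 (-0.82 ± 0.23, adjusted p = 0.121, edgeR), followed by B3gnt3 (-1.56 ± 0.52, adjusted p = 0.202, edgeR). For the markers the interaction was -0.08 ± 0.26 in Haus8, 0.53 ± 0.28 in Zfp868, 0.37 ± 0.22 in Ocel1, 0.10 ± 0.12 in Rfxank and -0.32 ± 0.32 in Rasd2. A p that misses the threshold does not show that the difference was equal under both viruses. Without Ctrl 2 the interaction gave 5 calls in edgeR (Csgalnact1, Ssbp4, Ushbp1, B3gnt3 and Tpm4, adjusted p from 0.0134 to 0.0470). The share over all genes rose in that fit too, to 4.74% (585 genes). Without DKO 1 the interaction gave 1 call in the block, Mpv17l2, and the share over all genes in that fit is not given here. With the 22 libraries, which also lack DKO 1, it gave 0, beside 1.05% of all genes. Ctrl 2 held the highest Ctrl value of each of the 5, among them 121 CPM of the tropomyosin Tpm4 and 152 CPM of Ushbp1, against at most 34.1 and 48.6 in the other Ctrl libraries.

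Promoter sequence was read for what the block genes share beyond position. Of the 99 genes 83 matched RefSeq, with 98 promoters of 300 bases in all. A CArG box on either strand occurred in 1 of them (1.02%), beside 1.63% of the 32851 promoters in the table, and in none of the 26 genes past the threshold that had a promoter. The 1 site belongs to Nr2f6, a nuclear receptor next to Ocel1 that measured -0.12 ± 0.09, and lies 77 bases before its start (chr8:71382010-71382039, minus strand, the box in capitals).
Nr2f6: taccccatgcCCTTATAAGGgcggccgtcg

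The letters CATTCC on either strand occurred in 22 of the 98 promoters (22.4%), beside 14.7% of all promoters. Among genes past the threshold 6 of 26 had them (Abhd8, Arrdc2, Cope, Haus8, Tmem38a and Use1), and among the others 14 of 57. Block promoters had a median of 60.3% G and C, beside 52.7% over all promoters. A match describes the letters in this window and says nothing of binding.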

How the data were processed

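The deposited table gives read counts as whole numbers for each gene and library. Per the submitters' processing notes, the tools and build used by the authors were STAR, featureCounts, DESeq2 and mm10. Versions are not given in the sources used here. Amplification used a SMART-Seq kit, and libraries were built with Nextera XT, per the labels' protocols. Gene positions are the first chromosome, the smallest start and the largest end in the table.

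The counts went into edgeR 4.0.16 under R 4.3.3 (quasi-likelihood, two-sided, TMM scaling, filterByExpr with a minimum count of 10, 24 libraries in 1 fit, Benjamini-Hochberg over 12281 genes, threshold 0.05). DESeq2 1.42.0, other scalings, a replicate block, an Xist covariate, fits of 2 groups, 22 libraries and leaving out each library were alternatives. The window, its genes, the role lists and the rule for named genes (markers, the 10 largest differences each way of at least 2 CPM, called genes, genes at the edges and up to 4 per role list) were chosen with earlier results of these data known, as was leaving out Ctrl 3 and DKO 1. Other genes are named after their values were seen. The script was tested on simulated data.

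The labels do not say whether libraries are separate animals, and p-values reflect the spread among libraries, which may be technical. No pair of libraries agreed within sampling noise (chi-square per gene 6.58 to 106 over 60 pairs). Deviations of libraries with the same replicate number correlated at -0.22 to 0.64 (median 0.07, 36 pairs), beside a median of -0.02 for other pairs. Not every pair exceeded 0.1, so the numbers were not taken as pairing.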

Additional observations from a re-analysis of the deposited data

Results flagged for a closer look

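Among 100 groups of 6 libraries (25 named genes in 4 groups) 11 held a library far from the others of its group, by the gap to its nearest neighbour over the range of the group. Chance alone marks about 1 in 20 groups, and 7 of the 11 were DKO 1. In DKO 1, Abhd8 was at 50.9 CPM (25.0 to 31.6 in the other 5), 2810422J05Rik at 177 (58.8 to 69.8), Lsm4 at 168 (63.7 to 77.8) and Fam125a at 38.7 (18.9 to 22.5). In the same library Myo9b was at 16.6 CPM (47.0 to 58.8 in the other 5), Jak3 at 8.99 (23.3 to 31.8) and Bst2 at 1.40 (4.20 to 4.97). Ctrl 4 had 37.2 CPM of Abhd8 (47.9 to 55.5 in the other 5) and 19.5 CPM of Arrdc2 (3.77 to 5.72). Ssbp4 was at 17.2 CPM in Ctrl 2 (11.3 to 12.4 in the other 5), and Csgalnact1 at 4.37 CPM in TKO 4 (1.75 to 2.44).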

How the results depend on the processing

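The genotype difference kept its sign in 713 of 713 refits of the 23 named genes past the threshold and moved by over 1.5 times in 5, of Arrdc2, Cope and 2810422J05Rik, each without DKO 1. Of the other 18, Cilp2 and Fam125a changed sign in 3 refits. The 23 genes had passed on the contrast used to choose the block, and the refits reuse most or all of the same libraries. Their kept signs therefore describe the fits and test nothing. The 5 calls for TKO against DKO became 9 with the Xist covariate, 8 with the 22 libraries, 8 with DESeq2 and 0 when a fit held just the 2 groups, and 3 to 8 when single libraries were left out (8 without DKO 1). Myo9b, Ssbp4 and Abhd8 stayed called whichever library was left out, while Ell and Fam125a were lost in 12 of 24 cases each. Ell was also lost with upper quartile scaling (adjusted p = 0.0580, edgeR) and with the Xist covariate (0.0604). The interaction went from 0 to 1 call (Ssbp4) with the Xist covariate and to 0 to 5 with single libraries left out, and MKO against Ctrl gave 0 throughout. DKO minus Ctrl went from 9 to 15 genes with DESeq2 and to 6 to 16 with single libraries left out, the highest without DKO 1. TKO minus MKO went from 25 to 42 genes with the 22 libraries, to 40 with only the 2 groups and to 19 to 39 with single libraries left out. The genotype difference gave 25 to 39 genes with single libraries left out (25 beside 8.59% of all genes, 39 beside 15.9%), and complete separation 4 to 5. For complete separation the shares over all genes were not taken in those fits. Between all 24 and the 22 libraries that share went from 0.309% to 0.502%. With the replicate number as a block the counts were 4 for TKO against DKO (Ell lost, adjusted p = 0.0589, edgeR), 31 for genotype, 9 for DKO minus Ctrl, 26 for TKO minus MKO and 0 for the other comparisons. The shares over all genes moved too: for TKO against DKO from 6.38% to 12.5%, 10%, 9.6% and 2.25% in the order above, for DKO minus Ctrl from 0.635% to 1.36%, and for TKO minus MKO from 13.3% to 23.4% and 21.6%. With single libraries left out, these shares at the lowest and highest block counts were 0.446% and 1% for DKO minus Ctrl. For TKO minus MKO they were 9.58% and 22%, and for TKO against DKO 5.85% (without Ctrl 1) and 8.9%. With the replicate block they were 7.39% for TKO against DKO, 11.8% for genotype, 0.774% for DKO minus Ctrl and 14.9% for TKO minus MKO. For the interaction they were 1.08% with the Xist covariate and 4.74% without Ctrl 2. The cause of these shifts was not tested. Depth limits the low genes most, such as Nwd1 and Nr2c2ap.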
